A study of Mus musculus with 13 samples.

Results

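The insulin receptor signalling chain was followed in sciatic nerve from 24-week-old BKS mice, as 10 genes listed by symbol. The list was chosen with earlier results of these data known. Rows were found for 8 of the 10, namely Insr, Irs2, Pik3r1, Akt1, Akt2, Foxo1, Foxo3 and Slc2a4, among 15437 probe sets in all, while Irs1 and Pik3ca were not analysed here. The set held 13 arrays of whole nerve, 6 from db/db mice (samples 110, 111, 112, 409, 410 and 411) and 7 from db/+ mice (samples 101, 103, 104, 105, 106, 404 and 407). The db allele inactivates the receptor for leptin (Lepr). Mice with 2 copies develop obesity and diabetes, and the nondiabetic db/+ controls carry a single copy of the same allele on the same BKS background. The comparison addressed which transcripts of diabetic nerve differ in this model of type 2 diabetes.

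Insulin binds its receptor, a tyrosine kinase, which phosphorylates the docking proteins Irs1 and Irs2. These recruit phosphoinositide 3-kinase, made of a regulatory subunit such as that of Pik3r1 and a catalytic subunit such as that of Pik3ca, and its lipid product brings the kinases Akt1 and Akt2 to the membrane. Active Akt keeps the transcription factors Foxo1 and Foxo3 out of the nucleus and, in muscle and fat, moves the glucose transporter of Slc2a4 to the cell surface. Neurons and Schwann cells carry insulin receptors, and a weaker response to insulin has been described in diabetic nerve. In mouse liver Irs2 transcription is raised by FOXO proteins in fasting and lowered by insulin. The chain works largely by phosphorylation, which an array of transcripts does not measure.

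The promoter of Irs2 is shown because this docking protein gene gave the widest swing between arrays among the 8 members, and that of Akt1 because it held the single match to the FOXO core among the measured members. RefSeq entries on build GRCm38.p6 gave promoter windows for 6 of the 8 measured members, 11 windows in all, counting alternative starts. Each window ran from 250 bases before the start to 50 bases after it. The 3 patterns of letters sought on both strands were the FOXO core TGTTTAC, the insulin response element core TGTTTTG and the E box CACGTG. The 250 bases before the start are printed 5′ to 3′ on the gene's strand, with every match in capitals. The Irs2 stretch lies on chromosome 8 (minus strand) at chr8:11008930-11009179 and the Akt1 stretch on chromosome 12 (minus strand) at chr12:112674885-112675134.
Irs2: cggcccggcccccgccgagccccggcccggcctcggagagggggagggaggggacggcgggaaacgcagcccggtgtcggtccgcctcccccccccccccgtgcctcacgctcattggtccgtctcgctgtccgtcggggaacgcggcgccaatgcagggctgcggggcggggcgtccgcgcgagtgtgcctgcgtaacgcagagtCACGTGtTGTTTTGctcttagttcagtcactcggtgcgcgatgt
Akt1: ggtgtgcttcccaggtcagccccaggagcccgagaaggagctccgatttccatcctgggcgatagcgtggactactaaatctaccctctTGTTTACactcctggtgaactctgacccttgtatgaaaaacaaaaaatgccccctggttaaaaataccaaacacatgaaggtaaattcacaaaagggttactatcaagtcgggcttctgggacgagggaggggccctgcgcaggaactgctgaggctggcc
In Irs2 the E box began at −44 and the insulin response element core at −37, counted in bases from the start, with 1 base between them. Of all 32851 promoter windows 7.15% held the E box, 6.28% the insulin response element core and 0.408% both. In Akt1 the FOXO core began at −161 from one of its 2 starts, and 3.65% of all windows held it. The other 9 windows of measured members held none of the 3 patterns, which says only that these letters are not in those windows. A match is a run of letters and not a shown binding site.

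The values are log2 levels made by RMA, and array medians lay between 8.63 and 8.71. The myelin gene Mbp was strong in both groups (db/db 12.90 to 13.27, db/+ 13.03 to 13.46), and 6 of 9 measured myelin and Schwann cell markers fell, against 11.7% of all probe sets. The mean of the 9 was 9.18 to 10.61 in db/db and 10.14 to 10.87 in db/+ 105, 404 and 407. In db/+ 101, 103, 104 and 106 it was 10.63 to 11.32. Lepr was lower on every db/db array than on any db/+ array, at 6.30 ± 0.28 (SD, n = 6) in db/db and 7.72 ± 0.79 (SD, n = 7) in db/+, although a probe set outside the altered part of the transcript checks no label. The db/+ arrays 101, 103, 104 and 106 stood apart. The mean of 13 neuronal markers was 6.31 to 6.99 in db/db, 10.84 to 11.58 in those 4 db/+ arrays, and 7.06 to 8.12 in db/+ 105, 404 and 407. The actin control probe sets, in which a larger 3′ minus 5′ signal is a sign of shorter RNA, differed by 0.485 to 0.916 log2 units in db/db, by 0.963 to 1.395 in those 4 db/+ arrays and by 0.399 to 1.144 in the other 3. For Gapdh the same measure was 0.505 to 0.868 in db/db, 0.724 to 0.990 in the 4 db/+ arrays and 0.55 to 1.34 in the other 3. The part of RNA quality in the results was not tested. The sample numbers also fall in 2 ranges, 101 to 112 and 404 to 411, whose meaning the labels do not give. Where the calls turn on these arrays, values without them or within a range stand beside the result. The labels do not state that each sample came from a separate animal, so the p-values measure the spread between these samples.

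None of the 8 measured members differed between db/db and db/+ nerve at the threshold used, a Benjamini-Hochberg adjusted p below 0.05 in limma's fit over all 15437 probe sets. The count of 0 stands against 25.1% of all probe sets past the same threshold, and 2 members, Foxo1 and Slc2a4, had an unadjusted p below 0.05. By the estimates, 7 of the 8 stood higher in db/db, and Pik3r1 lower. The median difference of the 8 was 0.25 on the log2 scale, against 0.017 over all probe sets, and it was −0.015 when the 4 db/+ arrays were left out. The 95% intervals, which are not adjusted for the number of genes, excluded a fall of 1 on the log2 scale for all 8 members and a rise of 1 for all but Irs2. The interval reached from 0.24 (Pik3r1) to 0.71 (Irs2) on either side of the estimate. The db/db and db/+ arrays overlapped in every member, where 9.68% of all probe sets showed no overlap.

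**Figure D1:**
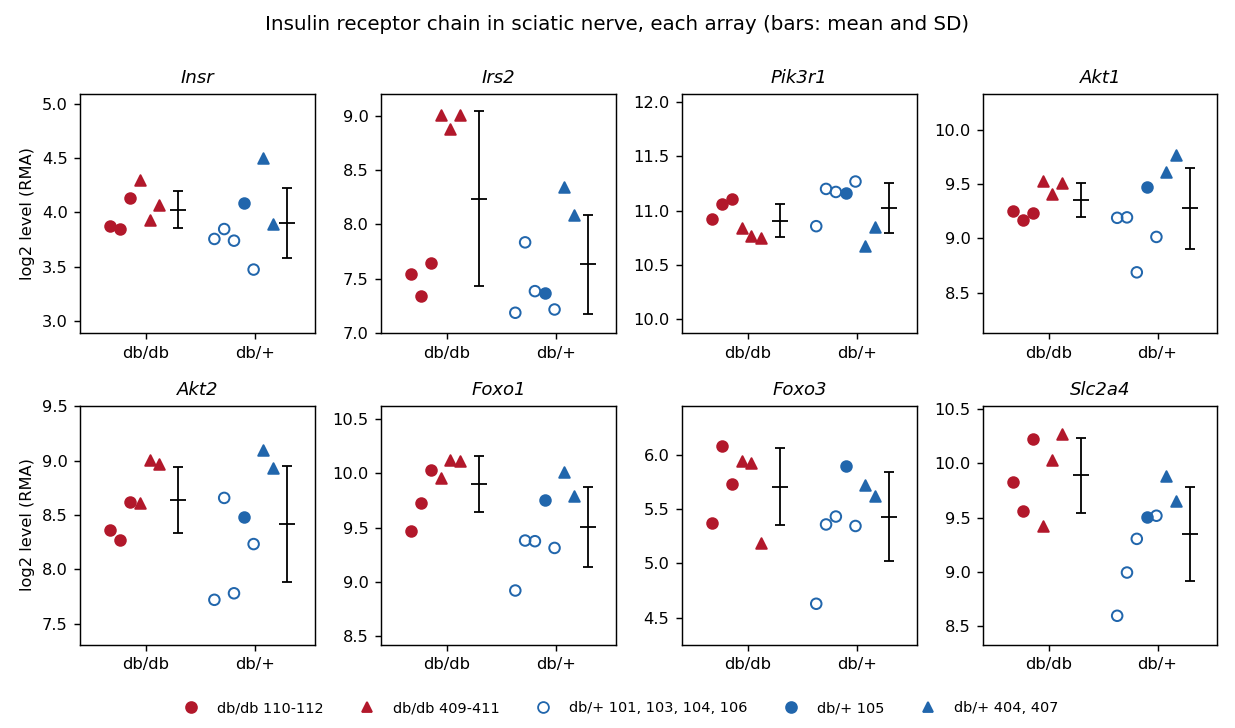
Log2 level of the 8 measured chain members on each array, db/db left of db/+, with every panel spanning 2.2 log2 units; circles are arrays 101 to 112, triangles arrays 404 to 411, open circles db/+ 101, 103, 104 and 106, and bars give the mean and SD. Irs2 lies between 8.88 and 9.01 in db/db 409 to 411 and between 7.34 and 7.64 in db/db 110 to 112, and in every panel the genotypes overlap.

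At the top of the chain, the receptor gene Insr gave a dim signal. Its level was 3.88, 3.85, 4.13, 4.29, 3.93 and 4.07 in db/db 110, 111, 112, 409, 410 and 411, and 3.75, 3.85, 3.74, 4.08, 3.47, 4.499 and 3.89 in db/+ 101, 103, 104, 105, 106, 404 and 407. The highest and the lowest value both belonged to db/+ arrays, and every db/db array lay between them. The means were 4.02 ± 0.17 (SD, n = 6) in db/db and 3.90 ± 0.32 (SD, n = 7) in db/+. The difference was 0.13 ± 0.15 (SE) on the log2 scale (limma, Benjamini-Hochberg adjusted p = 0.554), with a 95% interval from −0.19 to 0.44. Only 2.23% of probe sets had a lower mean signal, and without detection calls the row could not be separated from background, so that a difference in the transcript may not be visible here. Without the 4 db/+ arrays the estimate was −0.13.

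Irs2, which carries the signal of the receptor to phosphoinositide 3-kinase, varied more by sample number than by genotype. Its level was 9.01, 8.88 and 9.01 in db/db 409, 410 and 411, and 8.34 and 8.09 in db/+ 404 and 407. In the lower range it was 7.54, 7.34 and 7.64 in db/db 110, 111 and 112, and 7.19, 7.83, 7.39, 7.36 and 7.22 in db/+ 101, 103, 104, 105 and 106. The lowest array of the higher range thus stood above the highest array of the lower range. The genotype means were 8.24 ± 0.80 (SD, n = 6) in db/db and 7.63 ± 0.46 (SD, n = 7) in db/+, a difference of 0.61 ± 0.33 (SE) on the log2 scale (limma, Benjamini-Hochberg adjusted p = 0.195).

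Within arrays 404 to 411 all 3 db/db arrays lay above both db/+ arrays for Irs2. There Irs2 rose by 0.75 ± 0.13 (SE) on the log2 scale in db/db, a 1.68-fold difference with a 95% interval from 1.34 to 2.10 (limma, Benjamini-Hochberg adjusted p = 0.0326), in a fit in which 9.10% of probe sets passed. Within arrays 101 to 112 the genotypes overlapped, with a difference of 0.11 ± 0.16 (SE) (adjusted p = 0.667), where 18.5% of probe sets passed. The test of the difference between the ranges gave 0.64 ± 0.23 (SE), with an unadjusted p of 0.0189 and an adjusted p of 0.277 (limma, over all probe sets). No probe set passed that test after adjustment, and 15.3% had an unadjusted p below 0.05. With the number range as a term the genotype difference of Irs2 was 0.36 ± 0.14 (SE) (adjusted p = 0.0763), with 27.4% of probe sets past the threshold, and on the 9 arrays left without db/+ 101, 103, 104 and 106 the same fit gave a rise of 0.52 ± 0.14 (SE) (adjusted p = 0.0383), with 19.3% past it. The higher range holds 2 db/+ and 3 db/db arrays, and every estimate from it rests on these 5.

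Pik3r1 encodes the main regulatory subunit of phosphoinositide 3-kinase. Its level was 10.93, 11.06, 11.10, 10.84, 10.77 and 10.75 in db/db 110, 111, 112, 409, 410 and 411, and 10.86, 11.20, 11.17, 11.16, 11.27, 10.67 and 10.85 in db/+ 101, 103, 104, 105, 106, 404 and 407. The low values were those of arrays 404 to 411 and of db/+ 101, in both genotypes. The means were 10.91 ± 0.15 (SD, n = 6) in db/db and 11.03 ± 0.23 (SD, n = 7) in db/+, with a difference of −0.12 ± 0.11 (SE) (limma, Benjamini-Hochberg adjusted p = 0.468). Its 95% interval, from −0.36 to 0.13, was the narrowest of the 8.

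The kinase gene Akt1 stood at 9.25, 9.17, 9.23, 9.53, 9.41 and 9.51 in db/db 110, 111, 112, 409, 410 and 411, and at 9.19, 9.19, 8.69, 9.47, 9.01, 9.61 and 9.77 in db/+ 101, 103, 104, 105, 106, 404 and 407. The db/+ arrays spanned a wider range than the db/db arrays and enclosed them on both sides. The means were 9.35 ± 0.16 (SD, n = 6) in db/db and 9.28 ± 0.37 (SD, n = 7) in db/+, and the difference was 0.08 ± 0.16 (SE) (limma, Benjamini-Hochberg adjusted p = 0.758). Its sign was not settled, since it was −0.26 without the 4 db/+ arrays, −0.20 in arrays 404 to 411, −0.014 with the number range as a term and −0.022 without db/+ 104 alone, and none of these passed the threshold.

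Akt2, the isoform most closely tied to glucose uptake in muscle and fat, had levels of 8.36, 8.27, 8.62, 8.61, 9.01 and 8.97 in db/db 110, 111, 112, 409, 410 and 411, and of 7.72, 8.66, 7.78, 8.48, 8.23, 9.10 and 8.93 in db/+ 101, 103, 104, 105, 106, 404 and 407. The lowest 3 arrays were db/+ 101, 104 and 106, and the highest single value was that of db/+ 404. The means were 8.64 ± 0.30 (SD, n = 6) in db/db and 8.41 ± 0.53 (SD, n = 7) in db/+, with a difference of 0.23 ± 0.23 (SE) (limma, Benjamini-Hochberg adjusted p = 0.501). Without the 4 db/+ arrays it was −0.19 (adjusted p = 0.583).

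Foxo1, the forkhead factor that Akt holds in check, stood at 9.47, 9.73, 10.03, 9.96, 10.13 and 10.11 in db/db 110, 111, 112, 409, 410 and 411, and at 8.92, 9.38, 9.37, 9.75, 9.31, 10.01 and 9.79 in db/+ 101, 103, 104, 105, 106, 404 and 407. Every db/db array lay above db/+ 101, 103, 104 and 106, whereas the other 3 db/+ arrays lay within the db/db range. The means were 9.90 ± 0.26 (SD, n = 6) in db/db and 9.51 ± 0.37 (SD, n = 7) in db/+. The difference was 0.40 ± 0.17 (SE) on the log2 scale, with an unadjusted p of 0.0384 and a Benjamini-Hochberg adjusted p of 0.109 (limma). It was 0.051 without the 4 db/+ arrays (adjusted p = 0.873), and 0.48 without db/+ 404 alone, where it passed (adjusted p = 0.0455).

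The related factor gene Foxo3 gave a weaker signal. Its level was 5.37, 6.08, 5.73, 5.95, 5.92 and 5.19 in db/db 110, 111, 112, 409, 410 and 411, and 4.63, 5.36, 5.43, 5.90, 5.34, 5.72 and 5.62 in db/+ 101, 103, 104, 105, 106, 404 and 407. The single low value of db/+ 101 set the lower end, and the other arrays of both genotypes were intermingled. The means were 5.71 ± 0.35 (SD, n = 6) in db/db and 5.43 ± 0.41 (SD, n = 7) in db/+, with a difference of 0.28 ± 0.20 (SE) (limma, Benjamini-Hochberg adjusted p = 0.338) that was −0.042 without the 4 db/+ arrays.

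At the end of the chain, Slc2a4 encodes the insulin-responsive glucose transporter of fat and muscle. Its level was 9.83, 9.56, 10.23, 9.42, 10.03 and 10.27 in db/db 110, 111, 112, 409, 410 and 411, and 8.60, 8.996, 9.31, 9.51, 9.52, 9.88 and 9.66 in db/+ 101, 103, 104, 105, 106, 404 and 407. The lowest 3 arrays were db/+ 101, 103 and 104, and the highest 3 were db/db 112, 410 and 411. Mean levels were 9.89 ± 0.35 (SD, n = 6) for db/db and 9.35 ± 0.43 (SD, n = 7) for db/+. The difference was 0.54 ± 0.21 (SE) on the log2 scale, or 1.45-fold with a 95% interval from 1.06 to 1.98, and its adjusted p was 0.0758 with an unadjusted p of 0.0229 (limma, Benjamini-Hochberg). Without db/+ 404 alone it was 0.63 and passed (adjusted p = 0.0397), without the 4 db/+ arrays it was 0.21 (adjusted p = 0.561), and in arrays 404 to 411 it was 0.14 (adjusted p = 0.781).

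Within arrays 101 to 112, which hold 3 db/db arrays and all 4 of the db/+ arrays set apart, none of the 8 members passed. The estimates there, db/db minus db/+ on the log2 scale, were 0.69 for Slc2a4 (limma, Benjamini-Hochberg adjusted p = 0.0885), 0.40 for Foxo3, 0.39 for Foxo1, 0.24 for Akt2, 0.17 for Insr, 0.11 for Irs2, 0.11 for Akt1 and −0.10 for Pik3r1, with adjusted p-values of 0.199 or more for all but Slc2a4. Within arrays 404 to 411 Irs2 passed, and the other 7 estimates lay between −0.20 for Akt1 and 0.16 for Foxo1, with adjusted p-values of 0.312 or more.

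**Figure D2:**
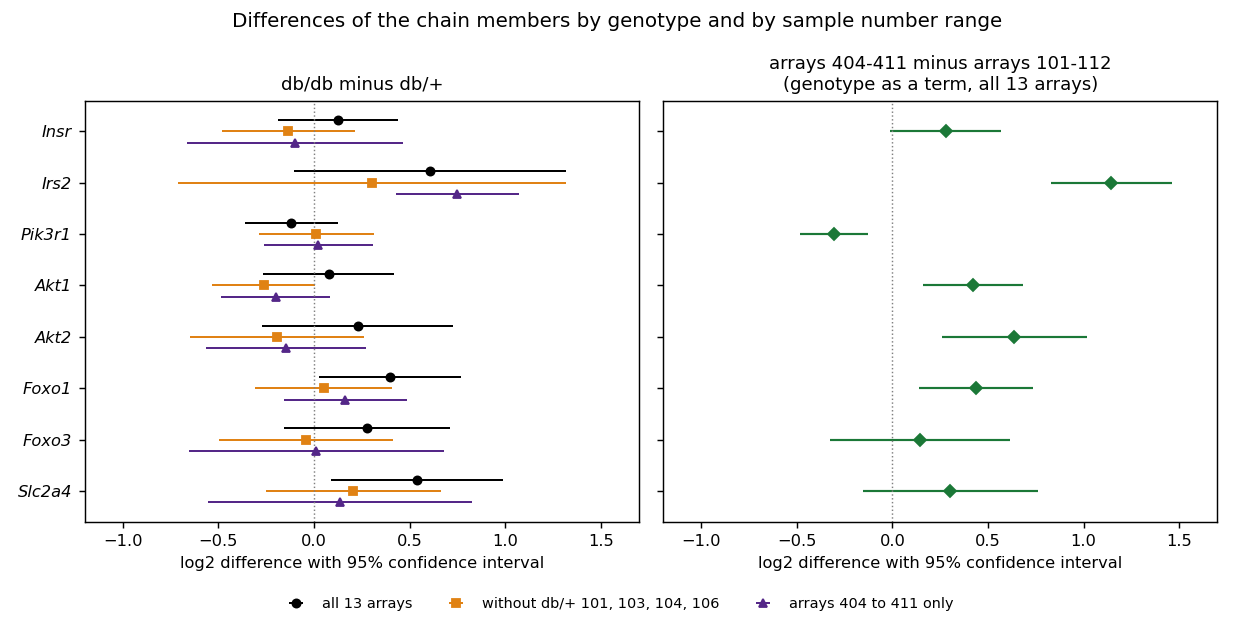
Log2 differences of the 8 members with 95% confidence intervals: left, db/db minus db/+ over all 13 arrays (circles), without db/+ 101, 103, 104 and 106 (squares) and in arrays 404 to 411 alone (triangles); right, arrays 404 to 411 minus arrays 101 to 112 with genotype as a term. On the left the Irs2 estimate of 0.75 in arrays 404 to 411 is the single one that passed the adjusted threshold, and on the right Irs2 stands at 1.15.

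Markers of other cell types also differed across the arrays on which Slc2a4 and Foxo1 were high or low. The mean of 9 adipocyte markers was 12.21 to 12.57 in db/db, 11.10 to 11.99 on the 4 db/+ arrays set apart, and 11.77 to 12.15 on the other 3 db/+ arrays, and 5 of the 9 rose. On a linear scale their summed level, again as log2, was 16.19 to 16.27 in db/db and 15.34 to 16.04 in db/+. The mean of 10 skeletal muscle markers ran between 6.35 and 10.71 on db/db arrays and between 6.45 and 11.89 on db/+ arrays, with 0 of the 10 past the threshold. Of the 13 neuronal markers 12 fell, and no marker was at 0. Their mean was 6.31 to 6.99 in db/db and 7.06 to 8.12 in db/+ 105, 404 and 407. On the 4 db/+ arrays set apart it was 10.84 to 11.58. Of the other lists, 1 of 8 fibroblast and perineurial markers fell, 1 of 6 endothelial markers rose and 1 fell, 2 of 6 macrophage markers rose, and the 1 erythroid marker measured did not pass. All these counts are from the fit over all 13 arrays, in which 13.4% of all probe sets rose and 11.7% fell. No such count was made without the 4 db/+ arrays set apart. The part of these cell types in the levels of Slc2a4 and Foxo1 was not tested. In whole nerve, fewer cells of a type and less RNA per cell cannot be told apart.

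**Figure D3:**
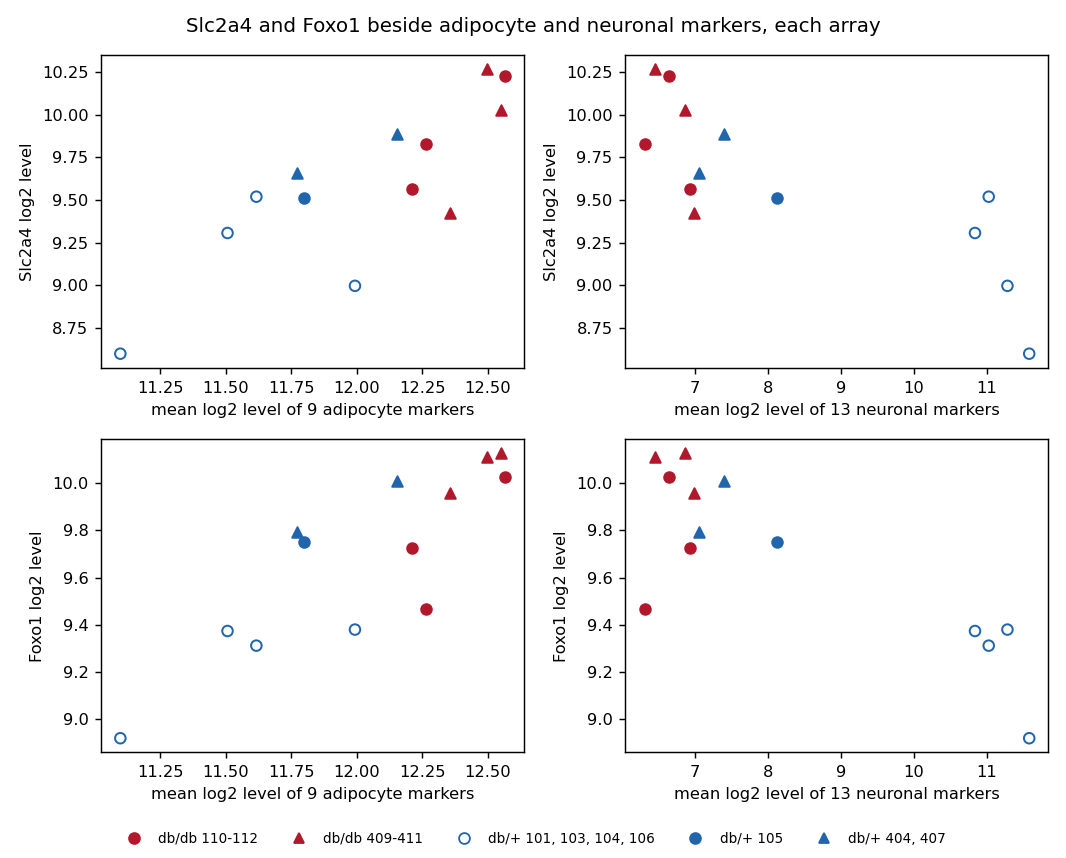
Log2 level of Slc2a4 (top) and Foxo1 (bottom) on each of the 13 arrays against the mean log2 level of 9 adipocyte markers (left) and 13 neuronal markers (right), with symbols by genotype and sample number. The db/db arrays have adipocyte means of at least 12.21, and db/+ 101, 103, 104 and 106 lie at neuronal means of 10.84 and above with Foxo1 at 9.38 or below.

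Over all 13 arrays more members differed by the range of sample numbers than by genotype, in a comparison chosen after the values of Irs2 were seen. With genotype as a term, 5 of the 8 members differed between arrays 404 to 411 and arrays 101 to 112 (limma, Benjamini-Hochberg adjusted p below 0.05), against 17.0% of all probe sets. Irs2 was higher in arrays 404 to 411 by 1.15 ± 0.14 (SE) on the log2 scale (adjusted p = 0.000946), Akt2 by 0.64 ± 0.17 (adjusted p = 0.0285), Foxo1 by 0.44 ± 0.14 (adjusted p = 0.0482) and Akt1 by 0.42 ± 0.12 (adjusted p = 0.0338). Pik3r1 was lower, by −0.31 ± 0.08 (adjusted p = 0.0259). Insr, Foxo3 and Slc2a4 did not pass. The 4 db/+ arrays with high neuronal markers all lie in the lower range, and without them 2 of the 8 passed, Irs2 with 1.27 (adjusted p = 0.00604) and Akt2 with 0.47 (adjusted p = 0.0429), against 10.3% of probe sets. Among the db/db arrays alone Irs2, Akt1 and Pik3r1 showed no overlap between samples 409 to 411 and samples 110 to 112, as did 32.5% of all probe sets. What the number ranges stand for cannot be told from the labels.

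Some genes around the chain did differ by genotype, in shares near those of all probe sets. Over 10 wider lists of the pathway, 115 of 131 listed genes were measured, of which 23 rose, 11 fell and 81 did not pass. The share past the threshold was 29.6%, against 25.1% of all probe sets, and the median difference was 0.12 on the log2 scale against 0.017. Of all probe sets 13.4% rose and 11.7% fell. Without the 4 db/+ arrays 15 of the 115 passed, 12 risen and 3 fallen. In that fit 12.9% of all probe sets passed, 6.12% as higher and 6.78% as lower. Of the 115, 8 rose and 3 fell in arrays 404 to 411, where 9.10% of all probe sets passed, 4.93% as higher and 4.17% as lower. The fallen count was 6 when any of db/+ 103, db/+ 106, db/db 110 or db/db 111 was left out alone. Of the 30 genes named from these lists by rule, 20 rose and 10 fell, and 22 kept their call whichever single array was left out. The other 8 did not. The call of Pik3c2a and Rps6 ended for any of 12 arrays, of Dok4 for 10, of Igf1r for 9, of Sh2b2 for 7, of Ptpn2 for 6, and of Vamp2 and Slc2a13 for 5, with adjusted p-values of up to 0.0967. Without db/+ 101, 103, 104 and 106, 10 of the 30 kept their call. Within arrays 101 to 112 alone 21 kept it, and within arrays 404 to 411 alone 8 did, namely Pik3cb, Prkcz, Slc2a12, Deptor, Rps6, Ptpn11, Sod2 and Angptl4. Those 8 were also among the 10. In these 3 fits 12.9%, 18.5% and 9.10% of all probe sets passed, in the same order. The 30 were picked by smallest p over all 13 arrays. How many of all 3867 called probe sets kept their call was not counted, so these counts have no matching share.

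**Figure D4:**
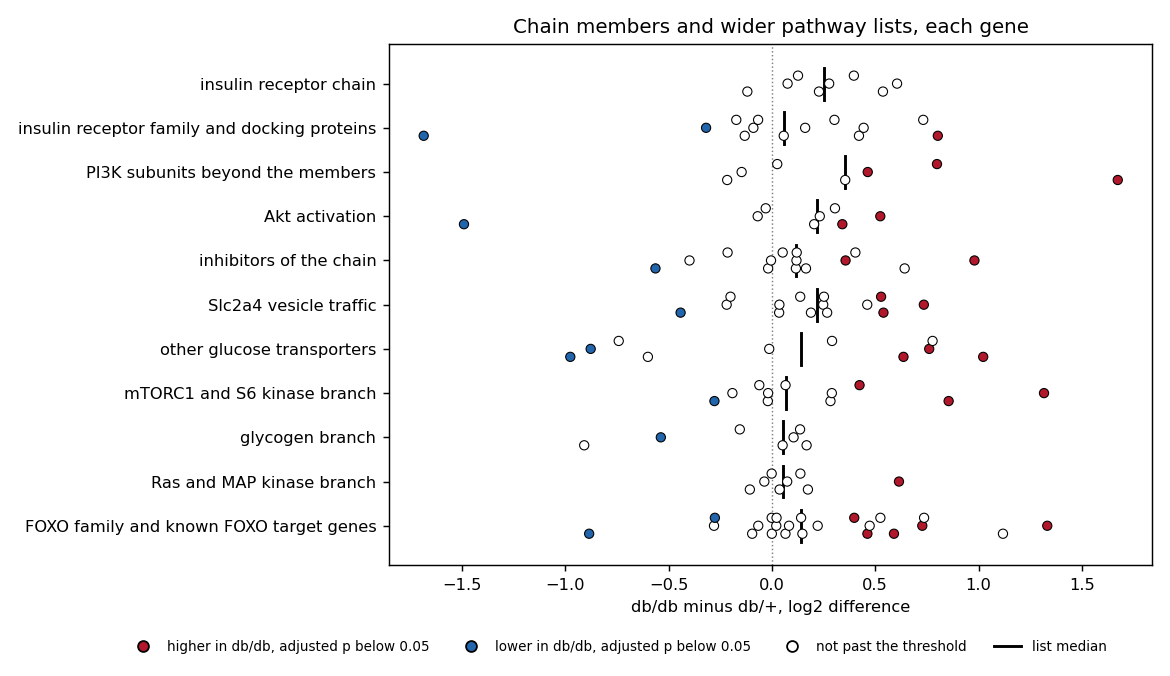
Log2 difference, db/db minus db/+, of each measured gene of the chain (top row) and of 10 wider pathway lists; red and blue points passed the adjusted threshold as higher or lower in db/db, white points did not, and bars are list medians. The chain has 0 coloured points among 8, and the wider lists together have 34 among 115.

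Among relatives of the receptor and docking proteins, 1 of 13 measured genes rose and 2 fell, with a median difference of 0.057. The share past the threshold was 23.1%, against 25.1% of all probe sets. The adaptor gene Sh2b2, whose product binds the insulin receptor, was higher by 0.80 ± 0.25 log2 units (SE), and Igf1r, the receptor of insulin-like growth factor 1, fell by 0.32 ± 0.11 (limma, Benjamini-Hochberg adjusted p = 0.036 and 0.0442). The docking protein gene Dok4 fell by 1.68 ± 0.55 (adjusted p = 0.0404), with 6.70 to 7.61 in db/db and 9.47 to 10.50 in the db/+ arrays of high neuronal markers, and it stood at −0.22 without them (adjusted p = 0.593). Without those 4 arrays Sh2b2 and Igf1r stood at 0.36 and −0.31 (adjusted p = 0.375 and 0.171).

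Further subunits of phosphoinositide 3-kinase gave 3 rises among 7 genes, or 42.9% against 25.1% of all probe sets, with a median of 0.35. Pik3cb, the second widely expressed catalytic subunit, was 10.09 ± 0.22 (SD, n = 6) in db/db and 9.29 ± 0.28 (SD, n = 7) in db/+. The lowest db/db array, at 9.75, lay above the highest db/+ array, at 9.66. It rose by 0.80 ± 0.14 (SE) (limma, Benjamini-Hochberg adjusted p = 0.00169), by 0.91 without the 4 db/+ arrays (adjusted p = 0.0103) and by 1.14 in arrays 404 to 411 (adjusted p = 0.0429). Pik3r5, a regulatory subunit best known from leukocytes, rose by 1.67 ± 0.33 (SE) (adjusted p = 0.00317), and without the 4 arrays stood at 0.99 (adjusted p = 0.0801). The macrophage markers Cd68 and Adgre1 rose by 1.38 and 0.86, 2 of the 6 in their list, where 13.4% of all probe sets rose. The others did not pass, with Aif1 at −0.64, Csf1r at 0.21, Cd163 at 0.065 and Mrc1 at 0.064. The mean of the 6 was 11.65 to 12.33 in db/db and 11.67 to 12.50 in db/+ 105, 404 and 407. In the 4 db/+ arrays it was 11.43 to 11.71. The part of macrophages in the rise of Pik3r5 was not tested. Pik3c2a, a class II enzyme, rose by 0.46 ± 0.16 (adjusted p = 0.0472), and stood at 0.28 without the 4 arrays (adjusted p = 0.292).

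Around Akt activation, 2 of 8 genes rose and 1 fell, or 37.5% against 25.1% of all probe sets. The atypical protein kinase C gene Prkcz was 6.48 ± 0.28 (SD, n = 6) in db/db and 7.97 ± 0.43 (SD, n = 7) in db/+, and all 6 db/db arrays, at 6.13 to 6.83, lay below the db/+ arrays, at 7.21 to 8.57. It fell by 1.49 ± 0.20 (SE) on the log2 scale (limma, Benjamini-Hochberg adjusted p = 0.000211), fell by 1.22 without the 4 db/+ arrays (adjusted p = 0.00897) and fell by 1.28 in arrays 404 to 411 (adjusted p = 0.0288). Mtor, the kinase of both mTOR complexes, rose by 0.52 ± 0.11 (SE), and Sgk1, a kinase related to Akt, by 0.34 ± 0.08 (adjusted p = 0.0038 and 0.00612). Without the 4 arrays these stood at 0.48 and 0.33 (adjusted p = 0.0582 and 0.0789).

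Inhibitors of the chain gave 2 rises and 1 fall among 14 measured genes, or 21.4% against 25.1% of all probe sets. Trib3, a pseudokinase that binds Akt, was higher by 0.98 ± 0.27 log2 units (SE), the phosphatase gene Ptpn2 rose by 0.36 ± 0.11, and the receptor phosphatase gene Ptprf fell by 0.56 ± 0.14 (limma, Benjamini-Hochberg adjusted p = 0.0183, 0.0328 and 0.0136). None of the 3 passed without the 4 db/+ arrays, where they stood at 0.71, 0.27 and −0.33 (adjusted p = 0.134, 0.24 and 0.253).

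Of 14 measured genes that move Slc2a4 vesicles, 3 rose and 1 fell, or 28.6% against 25.1% of all probe sets. Stxbp3, which binds the plasma membrane syntaxin with which these vesicles fuse, was 11.08 ± 0.18 (SD, n = 6) in db/db and 10.55 ± 0.20 (SD, n = 7) in db/+, without overlap. It rose by 0.53 ± 0.11 (SE) on the log2 scale (limma, Benjamini-Hochberg adjusted p = 0.00483), and by 0.50 without the 4 db/+ arrays (adjusted p = 0.0475), and stood at 0.47 in arrays 404 to 411 (adjusted p = 0.117). The sorting receptor gene Sort1 rose by 0.73 ± 0.14 and Tbc1d1, a Rab GTPase-activating protein, by 0.54 ± 0.14 (adjusted p = 0.0033 and 0.0158). The vesicle protein gene Vamp2 fell by 0.44 ± 0.13 (adjusted p = 0.028). Without the 4 arrays Sort1, Tbc1d1 and Vamp2 stood at 0.62, 0.44 and −0.24 (adjusted p = 0.0559, 0.137 and 0.32).

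The other glucose transporters split, with 3 rises and 2 falls among 10 genes, or 50% against 25.1% of all probe sets. Slc2a12, a transporter of insulin-sensitive tissues, was 5.48 ± 0.21 (SD, n = 6) in db/db and 6.36 ± 0.33 (SD, n = 7) in db/+, with every db/db array at or below 5.75 and every db/+ array at or above 5.98. It fell by 0.88 ± 0.15 (SE) on the log2 scale (limma, Benjamini-Hochberg adjusted p = 0.00141), fell by 0.69 without the 4 db/+ arrays (adjusted p = 0.0133) and fell by 0.65 in arrays 404 to 411 (adjusted p = 0.0486). The neuronal transporter gene Slc2a3 fell by 0.98 ± 0.22, with 0.136 as its adjusted p without the 4 arrays, where it stood at −0.52. Slc2a10 rose by 1.02 ± 0.23 and the inositol transporter gene Slc2a13 by 0.76 ± 0.23 (adjusted p = 0.007 and 0.0279), against 0.43 for each without the 4 arrays (adjusted p = 0.0744 and 0.279). Slc2a1, the transporter of the blood-nerve barrier, was looked up after its values were seen and stood at 12.93 in db/db and 12.94 in db/+, a difference of −0.013 (adjusted p = 0.928).

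In the mTORC1 branch 3 of 11 genes rose and 1 fell, or 36.4% against 25.1% of all probe sets. Deptor, which encodes an inhibitory partner of mTOR, was 10.63 ± 0.28 (SD, n = 6) in db/db and 9.31 ± 0.30 (SD, n = 7) in db/+, and the lowest db/db array, at 10.26, lay above the highest db/+ array, at 9.93. It rose by 1.32 ± 0.16 (SE) on the log2 scale (limma, Benjamini-Hochberg adjusted p = 0.000116), by 1.42 without the 4 db/+ arrays (adjusted p = 0.00157) and by 1.69 in arrays 404 to 411 (adjusted p = 0.0156). Rptor, the scaffold of mTORC1, rose by 0.85 ± 0.22 and the translation repressor gene Eif4ebp2 by 0.42 ± 0.12 (adjusted p = 0.0154 and 0.0191), and neither passed without the 4 arrays (0.59 and 0.22, adjusted p = 0.201 and 0.27). The Rptor row was dim, at 3.435 to 4.20 in db/+ and 4.239 to 5.615 in db/db. Only 5.81% of probe sets had a lower mean signal, and without detection calls this row could not be separated from background. The ribosomal protein gene Rps6 fell by 0.28 ± 0.09 (adjusted p = 0.0393), and fell by 0.43 without the 4 arrays (adjusted p = 0.0164).

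In the glycogen branch 1 of 7 genes passed the threshold, or 14.3% against 25.1% of all probe sets. This was the brain glycogen phosphorylase gene Pygb. It fell by 0.54 ± 0.15 (SE) on the log2 scale (limma, Benjamini-Hochberg adjusted p = 0.0182) and stood at −0.26 without the 4 db/+ arrays (adjusted p = 0.315). In the Ras and MAP kinase branch 1 of 8 rose, or 12.5% against the same 25.1%. This was Ptpn11, the phosphatase that couples receptors to Ras, at 8.41 ± 0.16 (SD, n = 6) in db/db and 7.79 ± 0.17 (SD, n = 7) in db/+, without overlap. Ptpn11 rose by 0.61 ± 0.10 (SE) (adjusted p = 0.000986), by 0.50 without the 4 arrays (adjusted p = 0.0253) and by 0.60 in arrays 404 to 411 (adjusted p = 0.0491).

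Of 23 measured genes that are FOXO relatives or known FOXO targets in some tissue, 5 rose and 2 fell, or 30.4% against 25.1% of all probe sets, and the median was 0.14 against 0.017. Sod2, the mitochondrial superoxide dismutase, was 12.19 ± 0.10 (SD, n = 6) in db/db and 11.46 ± 0.07 (SD, n = 7) in db/+, with 12.07 as the lowest db/db value and 11.57 as the highest db/+ value. It rose by 0.73 ± 0.07 (SE) on the log2 scale (limma, Benjamini-Hochberg adjusted p = 2.11e-05), and by 0.75 without the 4 db/+ arrays (adjusted p = 0.00169). The lipoprotein lipase gene Lpl and its inhibitor gene Angptl4, both also strong in fat, rose by 0.59 ± 0.09 and 1.33 ± 0.23 (adjusted p = 0.000793 and 0.0016). Without the 4 arrays they rose by 0.43 and 0.97 (adjusted p = 0.0121 and 0.00988). In arrays 404 to 411 Lpl stood at 0.36 and did not pass (adjusted p = 0.106), and Angptl4 rose by 0.70 (adjusted p = 0.0279). Of the 9 adipocyte markers given above 5 rose, and their part in the rises of Lpl and Angptl4 was not tested. The cell cycle inhibitor gene Cdkn1b fell by 0.88 ± 0.20 (adjusted p = 0.00655), with −0.73 and an adjusted p of 0.121 without the 4 arrays. These genes have many other regulators, and the list was written with earlier results of these data known.

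The genes whose profile over the 13 arrays lay closest to those of Insr and Slc2a4 were found by Pearson's r, as a description of arrays that share genotype and sample number. For Insr they were Abcc6 (r = 0.914), Clps (0.891), Hgfac (0.888), Sprr2d (0.888) and Sec14l4 (0.886), and 0 of these 5 passed the genotype threshold. These 5 rows were dim like Insr, with genotype means from 4.07 (Sprr2d, db/+) to 5.33 (Sec14l4, db/+). Without detection calls they too could not be separated from background. For Slc2a4 they were Hoxc10 (r = 0.936), Gstz1 (0.933), Car5b (0.918), Socs1 (0.915) and Mrpl49 (0.914). Of these Gstz1 and Car5b rose in db/db, by 0.52 and 0.82 on the log2 scale (limma, Benjamini-Hochberg adjusted p = 0.0273 and 0.0156). Socs1, which is also in the list of inhibitors of the chain, was dim, with means of 5.48 in db/db and 5.32 in db/+. Within the 6 db/db arrays alone r was 0.579 to 0.926 for the genes listed with Insr and 0.734 to 0.938 for those listed with Slc2a4.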

How the data were processed

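Per the labels' protocols, nerve RNA was amplified with a biotin label and read on 1-colour arrays. The authors deposited log2 levels from RMA, per the submitters' processing notes. RMA corrects background, equalises arrays and summarises probes, which removes differences in total signal and compresses folds of dim genes. Neither the RMA version nor the array type is given in the sources used here, and detection calls are lacking. The values, from 1.75 to 16.37, were used as deposited.

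Of 15479 rows 42 were control probe sets and left out of the tests. A platform annotation gave 14801 rows 1 symbol and 636 none. Samples were grouped by genotype. A linear model per row was fitted in R 4.3.3 with limma 3.58.1 (lmFit, eBayes). Its two-sided p-values were adjusted by Benjamini-Hochberg over 15437 rows, at a threshold of 0.05. The fit was tested on simulated data. The number of arrays limits the precision. Python 3.11.15 with pandas 2.3.3, numpy 2.4.6 and scipy 1.17.1 served for the rest.

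Members, lists and tests were chosen with earlier results of these data known. The text names the 8 members, Lepr, up to 4 called genes of smallest p from each wider list, or 1 where none passed, and the 5 genes most like Insr and Slc2a4. Other names were added after values were seen. Alternatives were array weights, 2 filters on dim genes, median centring, quantile normalization, intensity trend, robust moderation, the number range as a term or each range alone, leaving out 4 db/+ arrays or each array, and an exact rank-sum test. The number range effect was added after the values were seen. Marker lists of 8 cell types were described and not tested as sets.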

Additional observations from a re-analysis of the deposited data

Results flagged for a closer look

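Deptor in db/+ 103 stood at 9.93, apart from the other 6 db/+ arrays at 8.99 to 9.37, and still below all 6 db/db arrays. In all, 94 groups of arrays were examined in this way, over the members, the named genes and the marker lists. Only this 1 held an array so far from its group. Chance alone gives about 1 such group in 20, so 1 in 94 is fewer than chance gives.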

How the results depend on the processing

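No paired analysis was possible because db/db and db/+ samples share no sample number. Over 13 settings besides leaving out single arrays, between 0 and 3 members passed, with 3 under array weights (Irs2 0.94, Foxo1 0.56, Slc2a4 0.60, where 6525 of all probe sets passed), 1 in arrays 404 to 411 and 1 without the 4 db/+ arrays (101, 103, 104 and 106) with the number range as a term, both times Irs2 (0.75 and 0.52). Leaving out single arrays gave 0 to 2, the 2 being Foxo1 (0.30 to 0.48) and Slc2a4 (0.41 to 0.63) without db/+ 404. Directions turned, in each case short of the threshold, for Insr (−0.099 in arrays 404 to 411, −0.13 without the 4, −0.11 without them with the range as a term), Akt1 (−0.20, −0.26 and −0.22 there, −0.014 over all arrays with the range as a term, −0.022 to 0.16 without single arrays), Akt2 (−0.15, −0.19 and −0.12), Pik3r1 (0.021 in arrays 404 to 411, 0.012 without the 4) and Foxo3 (−0.042 without the 4, −0.059 without them with the range as a term), and for the number range difference of Foxo3 (−0.098 without the 4). Over all genes the count of 3867 was 2404 at or above the 50th percentile of mean level, which tests fewer genes, 6525 with array weights, 1404 in arrays 404 to 411 and 1992 without the 4, and 2893 to 4529 without single arrays. The 23 rises in the wider lists became 36 with array weights, 8 in arrays 404 to 411, 12 without the 4 and 18 to 26 without single arrays. The 11 falls became 6 at or above the 50th percentile, 3 in arrays 404 to 411, 3 without the 4, 6 without them with the range as a term, 7 by the exact rank-sum test and 6 to 11 without single arrays. Apart from the construction of the settings, the cause was not tested. The filter at the 25th percentile left out Insr and Foxo3, and that at the 50th also Irs2 and Akt2, so these have no value there. Low signal limits Insr most.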

Other observations

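Among the 115 measured wider pathway genes, 15 passed the threshold without db/+ 101, 103, 104 and 106, where 12.9% of all probe sets passed. Of these 15, 12 had also passed over all 13 arrays. The other 3 were the Akt-activating kinase gene Pdpk1, the glycogen synthase kinase gene Gsk3b and the stress gene Gadd45a, named here after their values were seen. Pdpk1 lay between 10.78 and 10.95 in db/db, between 10.58 and 11.06 in those 4 db/+ arrays, and between 10.13 and 10.44 in db/+ 105, 404 and 407. Without the 4 arrays Pdpk1 rose by 0.61 ± 0.10 (SE) on the log2 scale (limma, Benjamini-Hochberg adjusted p = 0.00449), against 0.30 over all arrays (adjusted p = 0.128). Gsk3b lay between 11.03 and 11.33 in db/db, between 11.26 and 11.52 in the 4 arrays, and between 10.49 and 10.92 in the other 3 db/+ arrays, and it rose by 0.52 without the 4 (adjusted p = 0.0267). Gadd45a rose by 0.43 there (adjusted p = 0.0367), against 0.021 over all arrays (adjusted p = 0.941). Of the 34 wider genes called over all arrays, 22 lost their call without the 4. Among all probe sets 3867 passed over all arrays and 1992 without the 4. How many of the 3867 lost their call, and how many of the 1992 were newly called, was not counted.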
